A study of Mus musculus with 8 samples.

Results

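The genes of the proteasome were followed in hepatocytes that carried or lacked the cannabinoid 1 receptor (CB1R, gene Cnr1). They were chosen by symbol alone, as mouse genes named Psma, Psmb, Psmc, Psmd or Psme followed by a digit. By this rule 45 of the 21368 genes that the array's probes could be named for were members. The proteasome is the protease that degrades proteins tagged with ubiquitin. Its 20S core is a barrel of outer rings of alpha subunits (Psma) and inner rings of beta subunits (Psmb), of which Psmb5, Psmb6 and Psmb7 carry the active sites. Interferon-γ replaces these with Psmb8, Psmb9 and Psmb10, which form the immunoproteasome and favour peptides for antigen presentation. The 19S regulatory particle (Psmc and Psmd) binds, unfolds and feeds in the substrates, and the activators (Psme) open the core without it.

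Hepatocytes came from male mice of 12 to 14 weeks on a standard diet, given no treatment. Both genotypes came as littermates from breeding albumin-Cre mice with CNR1flox/flox mice, so that Cre under the albumin promoter acts on Cnr1 in hepatocytes and other liver cells keep the gene. The 4 hCNR1+/+ samples have the strain label CNRO and the 4 hCNR1-/- samples CNRO Alb-Cre, and each was hybridised to 1 one-colour Agilent array. All 8 arrays lay on 1 slide, with hCNR1+/+ in the first row and hCNR1-/- in the second, so genotype cannot be told apart from position on the slide. Arrays with the same replicate number shared a column of the slide. The labels do not say that each sample was a separate animal, and p-values measure the spread between these samples only. The probe for Cnr1 stood well above background on 0 of 8 arrays, so the genotype rests on the labels.

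Values are log2 signals relative to the 75th percentile of all spots of the array, so 0 is that percentile and a difference of 1 is a doubling in relative signal. A probe's signal depends on its sequence, and levels are compared between arrays, not between genes. The percentile itself, in intensity units, was 62.0 to 139 on the hCNR1+/+ arrays and 29.3 to 124 on the hCNR1-/- arrays. Replicate 4 of hCNR1-/- was the dimmest, with 28.6% of spots well above background against 35.0% to 42.3% on the other arrays. Its mean correlation with its own group was 0.942, against 0.972 to 0.975 for the other hCNR1-/- arrays, and fold changes that it moved by over 1.5 times are also given without it. Hepatocyte markers were high in both genotypes, with a mean over 11 genes of 8.89 to 9.74 on hCNR1+/+ arrays and 8.72 to 9.25 on hCNR1-/- arrays. At an unadjusted limma p below 0.05, Pck1 (log2 fold change -1.81) and Ass1 (-1.14) were lower. That was 2 of the 11 (18.2%, against 6.92% of all genes), and 0 were higher, against 14.7%. None passed an adjusted limma p of 0.05, and their median log2 fold change was 0.081 (-0.0051 without hCNR1-/- replicate 4).

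Of the 45 members, 42 were tested, and the probe used for each was well above background on all 8 arrays. The other 3 stood well above background on 0 arrays: Psma8, the alpha subunit of the testis, Psmb11, the beta subunit of the thymus, and Psmc3ip, a recombination cofactor that is no subunit. Psme3ip1 also falls under the rule by name without being a subunit. Psme2, the beta chain of the interferon-induced activator PA28, had no probe of that name, and Psme2b, a copy of it, may share its signal.

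Under the scaling used, genes for 4 subunits of the beta ring were higher in hCNR1-/- hepatocytes, and no other member passed the adjusted threshold. Under the other 6 scalings tried, no member passed it. Nor did any when an array other than hCNR1-/- replicate 4 was left out. By limma with Benjamini-Hochberg adjustment over all 11072 genes tested, 4 of 42 members were higher at an adjusted p below 0.05 (9.52%), where 2.94% of all genes were higher. These were Psmb3, Psmb4, Psmb5 and Psmb6. None was lower by that limma test, where 1.3% of all genes were. With the fit limited to the 8371 genes well above background on all 8 arrays, as the members were, 4.07% of genes were higher. The same 4 members were called. At an unadjusted p below 0.05, 8 of 42 members were higher (against 14.7% of all genes) and 1 was lower (2.38%, against 6.92%). By the study's threshold of a fold change above 2 and p below 0.05, 3 members were higher (7.14%, against 4.78% of all genes), namely Psmb3, Psmb6 and Psmc6, and 0 were lower, against 3.75% of all genes. That count of 3 fell to 1 without hCNR1+/+ replicate 4 and to 1 without hCNR1-/- replicate 4, where Psmb3 and Psmb6 had log2 fold changes of 0.93 and 0.94.

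Over all 42 members the median log2 fold change was 0.20, and 30 lay above 0. Without hCNR1-/- replicate 4 it was 0.34, with 33 above 0, and the median of all genes was 0.17. The median over all 11072 genes was 0.083, with 56.6% above 0. The member median relative to that of all genes was 0.055 to 0.15 under the 7 scalings tried, although without any scaling both medians lay below 0, at -0.35 and -0.47. It also depended on which genes were kept. Relative to genes well above background on all 8 arrays, as the members were, it was 0.062, and with no filter on genes it was -0.024. The members did not all move one way, and by role the medians ran from -0.15 for the alpha ring to 0.83 for the constitutive beta ring.

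**Figure D1:**
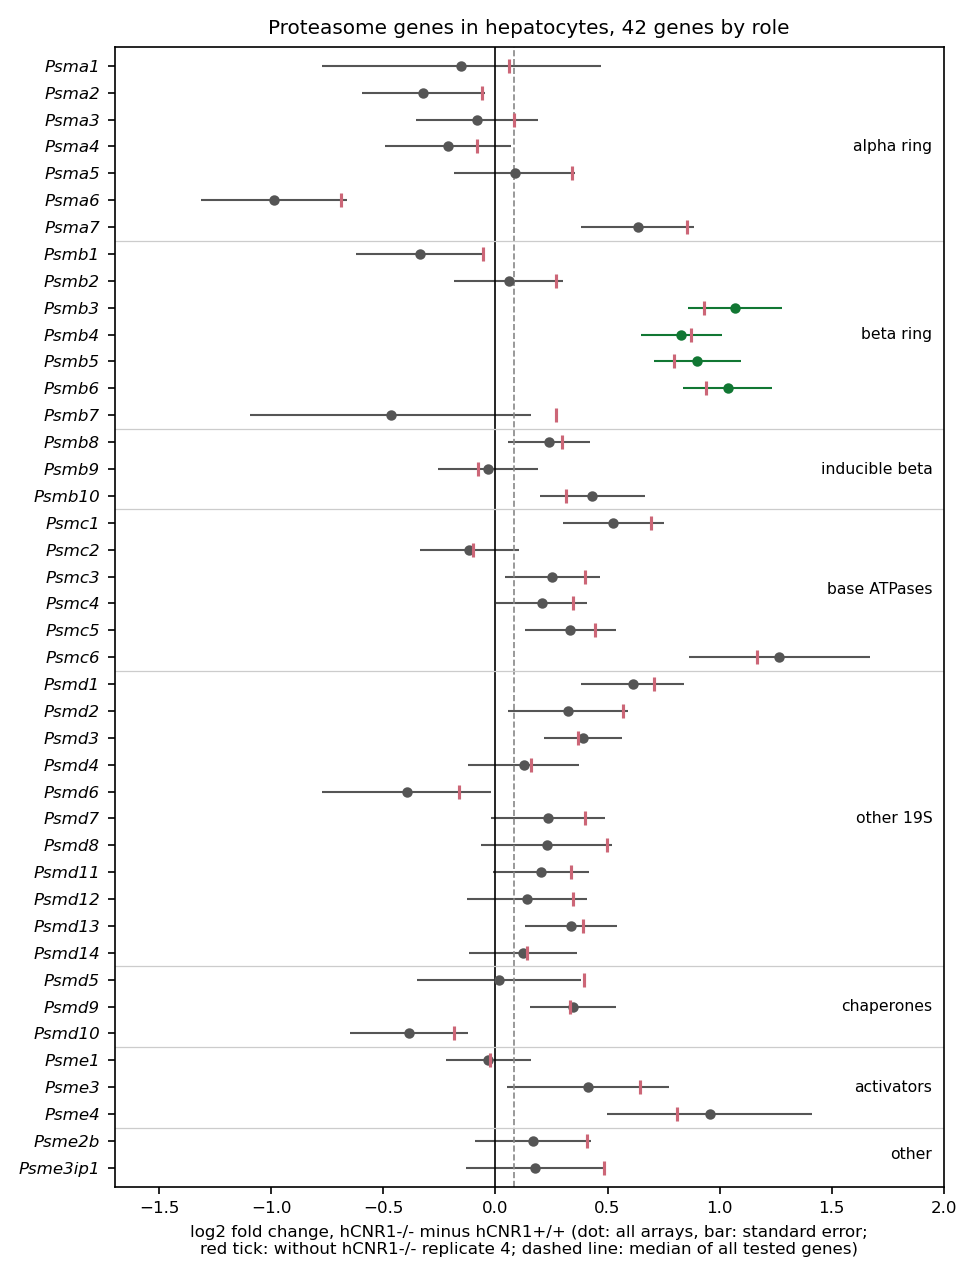
Log2 fold change (hCNR1-/- minus hCNR1+/+, horizontal axis) of the 42 tested genes grouped by role, with the standard error of the limma fit as bars, red ticks for the fit without hCNR1-/- replicate 4, and green for an adjusted p below 0.05. Psmb3, Psmb4, Psmb5 and Psmb6 lie between 0.83 and 1.07, and most other genes lie within their standard error of the dashed median of all genes or to its right.

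Psmb5 and Psmb6 are catalytic subunits, with chymotrypsin-like and caspase-like activity, and Psmb3 and Psmb4 are structural subunits of the same ring. For these genes, taken because they were called higher, the 250 bases before each annotated start are shown (RefSeq, build GRCm38.p6, in the direction of the gene). Capitals mark matches on either strand to the core of the antioxidant response element (TGACNNNGC), through which NFE2L1 and NFE2L2 act on proteasome genes, to an interferon response motif (GAAANNGAA), and to the CCAAT box. The windows are chr11:97703184-97703433 on the plus strand for Psmb3, chr3:94886959-94887208 on the minus strand for Psmb4, chr14:54617996-54618245 on the minus strand for Psmb5 and chr11:70525107-70525356 on the plus strand for Psmb6.
Psmb3: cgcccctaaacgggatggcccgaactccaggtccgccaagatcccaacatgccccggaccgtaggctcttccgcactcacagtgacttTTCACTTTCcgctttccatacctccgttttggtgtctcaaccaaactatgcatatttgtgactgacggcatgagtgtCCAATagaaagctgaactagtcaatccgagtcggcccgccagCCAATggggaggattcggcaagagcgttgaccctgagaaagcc
Psmb4: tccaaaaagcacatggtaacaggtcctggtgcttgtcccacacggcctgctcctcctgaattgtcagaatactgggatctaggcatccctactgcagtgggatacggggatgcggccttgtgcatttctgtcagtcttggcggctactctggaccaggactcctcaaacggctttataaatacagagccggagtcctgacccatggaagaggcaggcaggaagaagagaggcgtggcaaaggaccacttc
Psmb5: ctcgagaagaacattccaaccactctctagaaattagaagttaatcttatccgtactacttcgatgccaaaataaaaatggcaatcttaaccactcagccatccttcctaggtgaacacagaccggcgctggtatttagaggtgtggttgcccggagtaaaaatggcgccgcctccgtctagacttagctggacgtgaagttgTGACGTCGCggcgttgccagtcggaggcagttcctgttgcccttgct
Psmb6: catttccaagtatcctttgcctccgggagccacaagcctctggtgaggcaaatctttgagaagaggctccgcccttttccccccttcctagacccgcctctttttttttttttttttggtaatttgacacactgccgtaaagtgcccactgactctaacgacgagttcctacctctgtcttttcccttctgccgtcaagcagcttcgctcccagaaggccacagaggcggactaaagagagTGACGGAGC
TGACNNNGC was found before Psmb5, as TGACGTCGC from 47 to 39 bases before the start, and before Psmb6, as TGACGGAGC from 9 to 1 bases before it. The window of Psmb3 held GAAANNGAA on the opposite strand, read here as TTCACTTTC, and 2 CCAAT boxes. None of the 3 motifs was found before Psmb4, and no matches to different motifs overlapped in the windows shown. The table of promoters held 41 windows for 38 of the 45 members. TGACNNNGC was in 12.2% of these and in 10.2% of all 32851 windows of that length, GAAANNGAA in 7.32% and 7.13%, and CCAAT in 39.0% and 33.8%. A match describes letters in the window and is no evidence of binding.

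Psmb3 read 7.73, 7.68, 7.76 and 7.46 on the hCNR1+/+ arrays, given here and below in the order of replicates 1 to 4, and 8.52, 8.71, 8.53 and 9.13 on the hCNR1-/- arrays. The genotypes did not overlap. Its log2 fold change was 1.07 (SE 0.21, a fold change of 2.10), with a limma adjusted p of 0.0303. For Psmb6, values were 8.27, 8.13, 8.05 and 7.95 in hCNR1+/+ and 8.96, 9.19, 8.97 and 9.42 in hCNR1-/- hepatocytes. Every hCNR1-/- array was again above every hCNR1+/+ array, with a log2 fold change of 1.04 (SE 0.20) and a limma adjusted p of 0.0277.

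Psmb5, the subunit that proteasome inhibitors such as bortezomib bind, read 9.36, 9.31, 9.22 and 9.20 in hCNR1+/+ and 9.97, 10.22, 10.02 and 10.48 in hCNR1-/- hepatocytes. Its log2 fold change was 0.90 (SE 0.19, limma adjusted p 0.0380), and its other probe gave 0.93. Psmb4 was the steadiest of the 42 members in the control group, at 8.31, 8.29, 8.28 and 8.26. In hCNR1-/- hepatocytes it read 9.07, 9.34, 9.06 and 8.99, with a log2 fold change of 0.83 (SE 0.18, limma adjusted p 0.0380). Its SD was 0.024 in hCNR1+/+ and 0.15 in hCNR1-/- hepatocytes, and the genotypes did not overlap.

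The remaining constitutive beta genes did not pass the threshold. Psmb7, the trypsin-like catalytic subunit, read 4.05, 4.09, 3.72 and 3.65 in hCNR1+/+ and 4.56, 3.80, 4.08 and 1.20 in hCNR1-/- hepatocytes. The last value deviated by -2.68 from the hCNR1+/+ mean, the lowest deviation of any member on any array. The log2 fold change of Psmb7 was -0.47 (SE 0.63, limma adjusted p 0.696), and 0.27 without that array. The structural genes Psmb1 and Psmb2 had -0.34 and 0.058 and overlapped between genotypes. Without the same array they had -0.056 and 0.27, and the other hCNR1-/- arrays of Psmb2 (2.70 to 2.99) lay above all its controls (2.51 to 2.63).

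**Figure D2:**
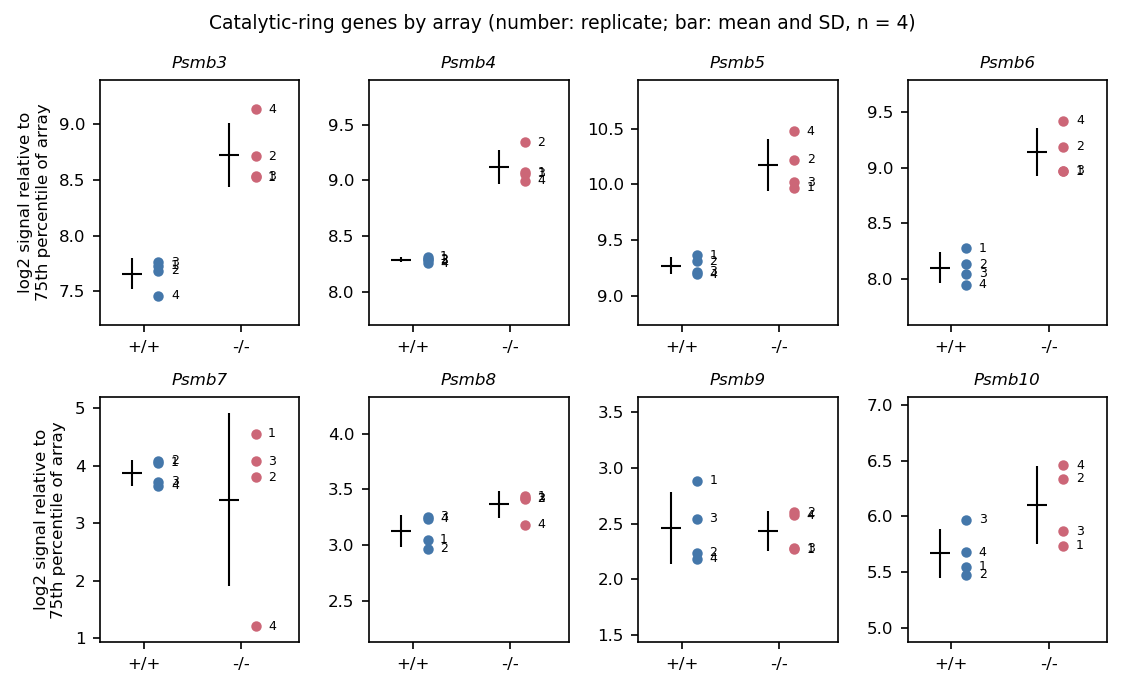
Log2 signal relative to the array's 75th percentile (vertical axes, which differ between panels) of 8 beta-ring genes in hCNR1+/+ (+/+) and hCNR1-/- (-/-) hepatocytes, 1 point per array numbered by replicate, with the mean and SD (n = 4). In the panels of Psmb3, Psmb4, Psmb5 and Psmb6 all hCNR1-/- arrays lie above all hCNR1+/+ arrays, while Psmb7 spreads widely through replicate 4, at 1.20.

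The 4 genes that rose kept a positive fold change under every scaling, but were called by limma adjusted p under none of the other 6. Across the 7 scalings the log2 fold change of Psmb3 ran from 0.51 to 1.12, of Psmb6 from 0.48 to 1.09, of Psmb5 from 0.34 to 0.97 and of Psmb4 from 0.27 to 0.85, lowest in each case without scaling. Relative to the median of all genes, the lowest of these values were 0.75, 0.68, 0.56 and 0.51. The highest limma adjusted p over these scalings was 0.846 for Psmb3, 0.852 for Psmb6, 0.884 for Psmb5 and 0.908 for Psmb4.

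**Figure D3:**
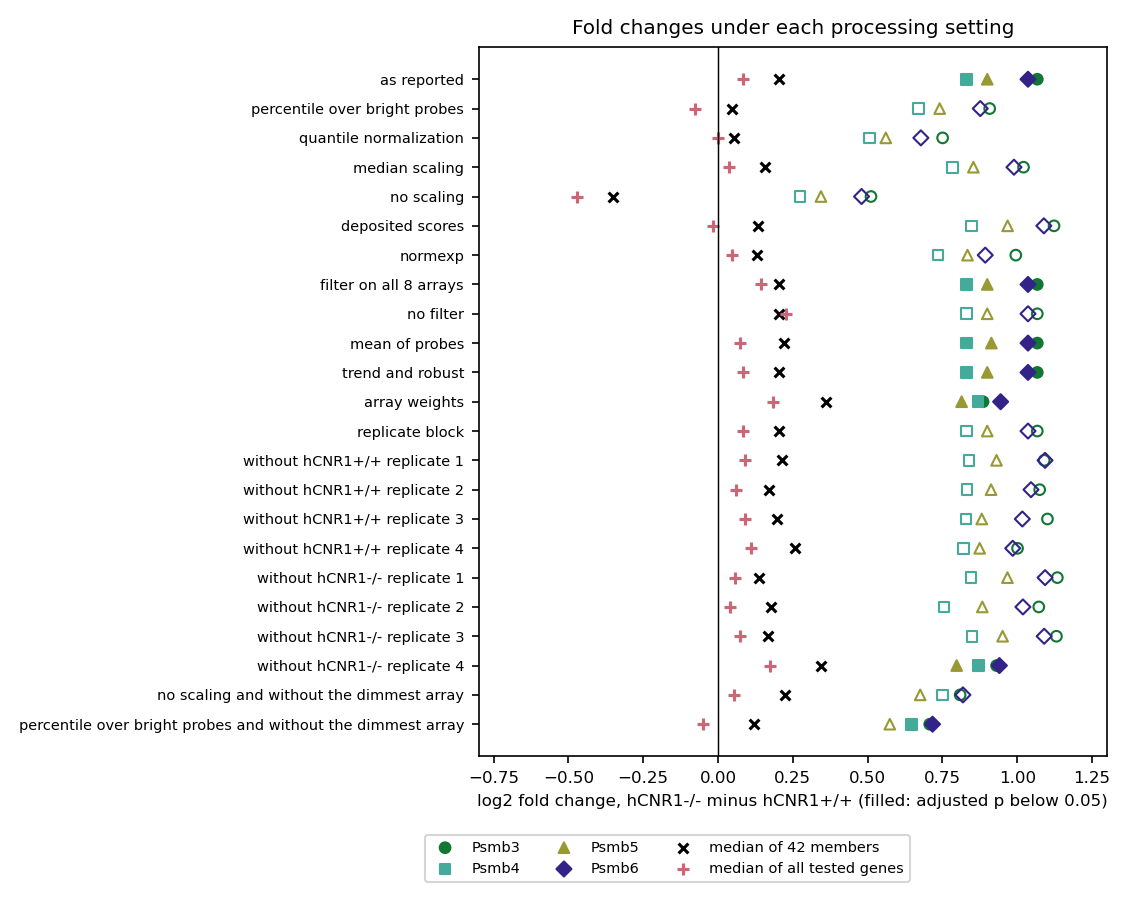
Log2 fold change (hCNR1-/- minus hCNR1+/+, horizontal axis) of the 4 called genes under each processing setting (rows), filled where the adjusted p was below 0.05, with the median of the 42 members (cross) and of all tested genes (plus). All 4 genes stay above 0 and above both medians in every row, while filled symbols appear in few rows and the medians shift left to -0.35 and -0.47 without scaling.

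Leaving out 1 array at a time, any array other than hCNR1-/- replicate 4 left 0 members past the adjusted threshold in limma. Without hCNR1-/- replicate 4, 7 members were higher (16.7%), where 10.1% of all genes were. They were the same 4 beta genes with Psma7, Psmc1 and Psmd2. The 4 genes were read by some of the brightest probes, and bright probes had higher fold changes than the rest of the array. Of the 411 genes whose mean log2 signal was at least 8, a limit chosen after the values were seen, 78.8% lay above 0, the median log2 fold change was 0.30 and 3.65% were higher by limma adjusted p. The limit used the mean over both genotypes, which a rise itself can carry a gene across, as with Psmb3 (7.66 in hCNR1+/+ and 8.73 in hCNR1-/- hepatocytes). Psmc3 and Psmd3, also over it, had log2 fold changes of 0.25 and 0.39 (0.40 and 0.37 without hCNR1-/- replicate 4). The part of probe brightness in these rises was not tested.

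The immunoproteasome genes did not pass the threshold. Psmb8, which takes the place of Psmb5, read 3.05, 2.97, 3.26 and 3.24 in hCNR1+/+ and 3.44, 3.42, 3.42 and 3.19 in hCNR1-/- hepatocytes, for a log2 change of 0.24 (95% interval -0.17 to 0.65, limma adjusted p 0.485). Its replicates 1, 2 and 3 lay above all controls and replicate 4 among them. Psmb9, the counterpart of Psmb6, read 2.88, 2.24, 2.54 and 2.18 in hCNR1+/+ and 2.27, 2.60, 2.28 and 2.57 in hCNR1-/- hepatocytes. The genotypes overlapped fully, with a log2 fold change of -0.032 (95% interval -0.53 to 0.47, limma adjusted p 0.952), or -0.079 without hCNR1-/- replicate 4. Psmb10, the counterpart of Psmb7, read 5.55, 5.48, 5.97 and 5.68 in hCNR1+/+ and 5.73, 6.34, 5.87 and 6.46 in hCNR1-/- hepatocytes. Its log2 fold change was 0.43 (95% interval -0.095 to 0.96, limma adjusted p 0.319), with replicates 1 and 3 of hCNR1-/- inside the control range.

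Each inducible subunit was also set against its constitutive counterpart on the same array, which removes a factor common to all probes of the array but not one that depends on signal. The size of such a difference depends on the probes, and its change between genotypes is what was compared. Psmb9 minus Psmb6 was -5.64 ± 0.23 in hCNR1+/+ and -6.71 ± 0.11 in hCNR1-/- hepatocytes (SD, n = 4), a change of -1.07 with no overlap. The two-sided exact permutation p was 0.0286, the smallest that 4 against 4 arrays can give, and 0.0429 when adjusted over the 3 pairs. Psmb8 minus Psmb5 went from -6.14 ± 0.21 to -6.81 ± 0.34, a change of -0.66 with the same exact p of 0.0286 (0.0429 adjusted). Psmb10 minus Psmb7 changed by 0.90 (exact permutation p 0.457), and by 0.044 without hCNR1-/- replicate 4. Without that array the first pair changed by -1.02 and the second by -0.50. In the first 2 pairs the probe signals changed unequally, but each set a dim probe against a bright one, and the part of signal strength was not tested. Since Psmb5 and Psmb6 were among the called genes, these pairs are no independent evidence of their rise. Under quantile normalization the changes were -0.73 and -0.39, both with an adjusted exact permutation p of 0.0857, and with the deposited scores -1.19 and -0.82 (adjusted exact permutation p 0.171 and 0.386).

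**Figure D4:**
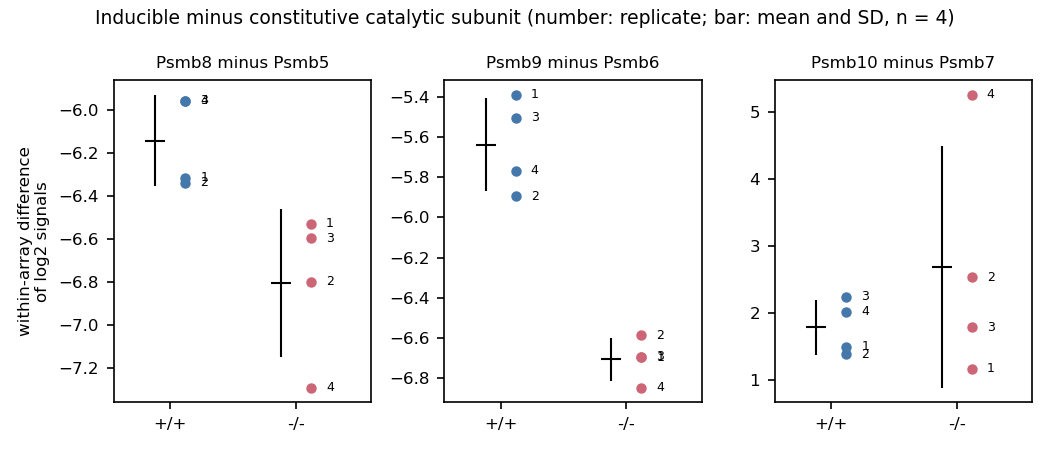
Within-array difference of log2 signals (vertical axes) between each inducible catalytic subunit and the constitutive subunit it replaces, 1 point per array numbered by replicate, with the mean and SD (n = 4). In the first and second panels all hCNR1-/- arrays (-/-) lie below all hCNR1+/+ arrays (+/+), and in the third replicate 4 of hCNR1-/- stands apart at 5.26.

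Immune cells left in a hepatocyte preparation carry immunoproteasome transcripts of their own. All 12 tested of 14 Kupffer cell markers had a log2 fold change below 0, with a median of -0.98. Their mean level was 1.23 to 2.48 on hCNR1+/+ arrays and 0.22 to 0.95 on hCNR1-/- arrays, while Timd4 stood well above background on 0 arrays. By unadjusted p 7 of the 12 were lower (58.3%, against 6.92% of all genes). Marco and Ctss were lower by limma adjusted p (16.7% of the 12, against 1.3% of all genes), at 0.0336 and 0.0124, and with 1 array left out at most 0.0969 and 0.0568. Marco stood well above background on 4 arrays of each genotype. Ctss, like Vsig4 among the 7, did so on 4 hCNR1+/+ arrays but only 2 hCNR1-/- arrays. The size of such falls near background is uncertain. Of 12 lymphocyte markers only 3 could be tested (mean level 3.57 to 4.01 on hCNR1+/+ and 3.98 to 5.30 on hCNR1-/- arrays), and Ptprc, Cd3d, Cd3g, Cd79a, Ms4a1 and Gzma stood well above background on 0 arrays. All 3 had a log2 fold change above 0, with a median of 0.61 (0.34 without hCNR1-/- replicate 4). By unadjusted p 1 of the 3, Cd3e, was higher (33.3%, against 14.7% of all genes), and 0 by limma adjusted p. The part of these cells in the immunoproteasome values was not tested. In such bulk samples fewer cells of a type and less RNA per cell cannot be told apart.

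The alpha ring, which gates entry to the core, held genes on both sides of 0. Its median log2 fold change over 7 genes was -0.15 (0.059 without hCNR1-/- replicate 4), with 2 above 0, and it was below 0 under all 7 scalings. Without hCNR1+/+ replicate 1 the median was 0.062, with 5 above 0, and without hCNR1+/+ replicate 4 it was -0.34. Psma6 read 5.10, 4.93, 4.44 and 4.42 in hCNR1+/+ and 4.22, 3.89, 3.98 and 2.84 in hCNR1-/- hepatocytes. It was the 1 member lower on every hCNR1-/- array (2.38% of members, against 5.04% of all genes). Its log2 fold change of -0.99 (SE 0.33) had a limma adjusted p of 0.118, and -0.69 without replicate 4 one of 0.0706. Psma7, another alpha subunit, read 7.58, 7.73, 7.58 and 7.58 in hCNR1+/+ and 8.28, 8.57, 8.57 and 7.59 in hCNR1-/- hepatocytes. Its log2 fold change was 0.63 (SE 0.25, limma adjusted p 0.182). Replicate 4 of hCNR1-/- was at the control level, and without it the value was 0.86 (limma adjusted p 0.0156). Psma1 varied most in the control group (SD 1.44), as it read 2.53 in hCNR1+/+ replicate 4 against 5.19 to 5.71 in the others. Its log2 fold change of -0.15 (SE 0.62) was the class median. The other alpha genes, Psma2, Psma3, Psma4 and Psma5, lay between -0.32 and 0.085, and without hCNR1-/- replicate 4 they had -0.060, 0.083, -0.083 and 0.34.

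The regulatory particle lay mostly above 0 without a member past the adjusted threshold. Of its 6 base ATPases (Psmc), which unfold the substrate, 5 were above 0 with a median of 0.29, and of 11 other subunits (Psmd) 10 were, with a median of 0.23. Without hCNR1-/- replicate 4 the medians were 0.42 and 0.37. Without scaling both turned below 0 (-0.26 and -0.33), but relative to the median of all genes they stayed above it under all 7 scalings, by 0.090 to 0.28 and by 0.079 to 0.16. With no filter on genes, the ATPases stood at 0.065 relative to that median. The other subunits then stood at -0.00022, with 5 of the 11 above it.

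Psmc6 had the largest log2 fold change of the 42 members, 1.27 (SE 0.40, limma adjusted p 0.108), on a dim probe. It read 1.02, 0.57, -0.31 and -0.91 in hCNR1+/+ and 1.05, 1.12, 1.61 and 1.66 in hCNR1-/- hepatocytes, so that the nearest arrays of the genotypes all but touched. Psmc2 lay at the other end of the ATPases at -0.12 (limma adjusted p 0.786). Its values were 6.82, 6.38, 6.82 and 7.23 in hCNR1+/+ and 6.60, 6.79, 6.75 and 6.65 in hCNR1-/- hepatocytes, within the control range throughout. Psmc1, another ATPase of the base, had 0.53 (limma adjusted p 0.216), and 0.69 without hCNR1-/- replicate 4 (limma adjusted p 0.0274).

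Psmd1, the large scaffold of the base, read 3.87, 3.48, 4.0 and 4.19 in hCNR1+/+ and 4.66, 4.37, 4.76 and 4.21 in hCNR1-/- hepatocytes. The groups did not overlap, and the log2 fold change was 0.61 (SE 0.23, limma adjusted p 0.162). Psmd3, a lid subunit, also did not overlap (8.06 to 8.25 against 8.42 to 8.60, log2 fold change 0.39, limma adjusted p 0.233). In all, 7 members were higher on every hCNR1-/- array than on any hCNR1+/+ array (16.7%, against 12.7% of all genes), these being Psmb3, Psmb4, Psmb5, Psmb6, Psmc6, Psmd1 and Psmd3. Psmd6, another lid subunit, was the lowest of its class at -0.40 (limma adjusted p 0.574). It read 3.11, 2.63, 2.11 and 1.52 in hCNR1+/+ and 2.35, 1.99, 2.21 and 1.24 in hCNR1-/- hepatocytes, with wide spread in both, and without hCNR1-/- replicate 4 the change was -0.16. The ubiquitin receptors Psmd2 and Psmd4 had 0.32 and 0.13, and Psmd14, the deubiquitinase of the lid, 0.12. With hCNR1-/- replicate 4 left out Psmd2 had 0.57 (limma adjusted p 0.0468).

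None of the 3 chaperones that help assemble the base passed the adjusted limma threshold, nor an unadjusted p of 0.05. Psmd9 read 2.90, 2.69, 2.87 and 2.62 in hCNR1+/+ and 3.23, 3.22, 2.85 and 3.16 in hCNR1-/- hepatocytes, for a log2 change of 0.35 (limma adjusted p 0.325). Only replicate 3 of hCNR1-/- fell in the control range. Psmd10, also known as gankyrin, read 1.04, 0.71, 0.41 and 0.76 in hCNR1+/+ and 0.59, 0.73, 0.32 and -0.26 in hCNR1-/- hepatocytes, for a log2 change of -0.38 (limma adjusted p 0.431). Psmd5 had 0.017. Without hCNR1-/- replicate 4 Psmd10 had -0.18 and Psmd5 0.39, and the median of the 3 went from 0.017 to 0.33.

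Of the activators, Psme1, the alpha chain of PA28, read 5.52, 5.49, 5.73 and 5.77 in hCNR1+/+ and 5.67, 5.77, 5.37 and 5.58 in hCNR1-/- hepatocytes. With 10 spots on each array it was the most replicated probe among the members, and its log2 fold change was -0.032 (95% interval -0.46 to 0.39, limma adjusted p 0.941). Psme4, which encodes PA200, read -0.54, 0.24, -1.60 and -1.83 in hCNR1+/+ and 0.02, -0.64, 0.24 and 0.46 in hCNR1-/- hepatocytes. The genotypes overlapped on this dim probe, and its log2 fold change of 0.96 (SE 0.46) had a limma adjusted p of 0.264. Psme3, the nuclear activator PA28γ, had 0.41, Psme2b 0.17 and Psme3ip1 0.18, and without hCNR1-/- replicate 4 they had 0.65, 0.41 and 0.48.

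Array by array, hCNR1-/- replicates 1, 2 and 3 lay above the hCNR1+/+ mean for 36, 32 and 35 of the 42 members, with median deviations of 0.41, 0.29 and 0.31. In replicate 4 only 16 members did, with a median of -0.19. It nevertheless held the highest values of Psmb3, Psmb5 and Psmb6. The same counts over all genes are not given here. Without hCNR1-/- replicate 4 the median log2 fold change of all genes was itself 0.17. The SD within a genotype had a median of 0.18 over members in hCNR1+/+ and of 0.34 in hCNR1-/- hepatocytes. It ran from 0.085 for Psmd3 to 1.51 for Psmb7 in the latter. For the 10 members with more than 1 probe well above background on at least 4 arrays, all probes of a gene had the same sign, although their sizes could differ, as for Psmd12 (0.14 and 0.99, the former 0.34 without hCNR1-/- replicate 4) and Psma4 (-0.21 and -0.73).

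**Figure D5:**
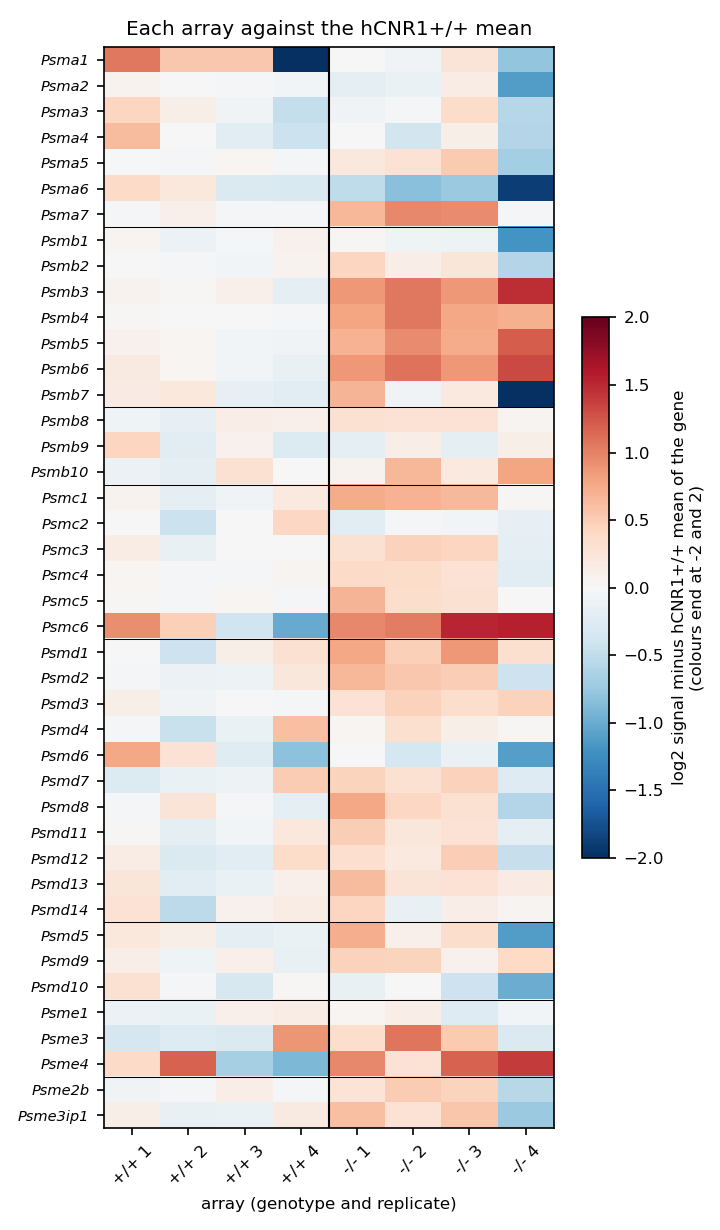
Log2 signal of the 42 members (rows, grouped by role) on each array (columns) minus the gene's hCNR1+/+ mean, with colours ending at -2 and 2. The columns of hCNR1-/- replicates 1 to 3 are mostly red, while replicate 4 is red for Psmb3, Psmb4, Psmb5, Psmb6 and Psmc6 among others and blue for many of the rest, and the darkest blue cells, Psmb7 in hCNR1-/- replicate 4 (-2.68) and Psma1 in hCNR1+/+ replicate 4 (-2.13), lie beyond the colour scale.

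Genes that build or serve the proteasome were read from the same fit. Of 20 genes for its assembly and regulation 18 were tested, with a median log2 fold change of 0.11 (0.21 without hCNR1-/- replicate 4), and by limma adjusted p 1 was higher (5.56%, against 2.94% of all genes) and 0 lower. By unadjusted p 3 were higher (16.7%, against 14.7%) and 1 lower (5.56%, against 6.92%). The gene that rose was Psmg3, a chaperone of core assembly, which went from 4.34 ± 0.16 to 5.32 ± 0.12 (SD, n = 4), or by 0.98 on the log2 scale (limma adjusted p 0.0279). Like the 4 beta genes it was called under 1 of 7 scalings, and with 1 array left out only without hCNR1-/- replicate 4 (limma adjusted p 0.0142 to 0.105). Its partner Psmg4 had 0.72, Pomp, which matures the beta ring, 0.23, and the transcription factors Nfe2l1 and Nfe2l2 0.21 and -0.41. Without hCNR1-/- replicate 4 Nfe2l1 and Nfe2l2 had 0.027 and 0.070, and Pomp had 0.56. Of 27 genes of ubiquitin and substrate delivery 25 were tested and none passed the adjusted limma threshold, with a median of 0.20 (0.32 without hCNR1-/- replicate 4). By unadjusted p 4 of the 25 were higher, against 14.7% of all genes, and 0 lower, against 6.92%. Among them the ubiquitin gene Ubb had 0.10 (0.26 without hCNR1-/- replicate 4).

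In antigen processing downstream of the immunoproteasome, 10 of 12 genes were tested, with a median of 0.13, 1 higher and 0 lower by limma adjusted p, where 2.94% and 1.3% of all genes were. By unadjusted p the counts were the same, against 14.7% and 6.92% of all genes. The one that rose was Canx, a chaperone of the endoplasmic reticulum for glycoproteins in general, from 2.88 ± 0.19 to 3.82 ± 0.18 (SD, n = 4), or by 0.94 on the log2 scale (limma adjusted p 0.0362). Its call too was lost under the other 6 scalings and without any array other than hCNR1-/- replicate 4 (limma adjusted p 0.0194 to 0.129 with 1 array left out). The peptide transporter genes Tap1 and Tap2 had 0.022 and 0.37, B2m, the light chain of class I molecules, -0.53, the class I transactivator Nlrc5 -0.80 and the interferon factor Irf1 0.25. Leaving out hCNR1-/- replicate 4, Nlrc5 had -0.34 and Tap1 -0.047.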

How the data were processed

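Isolated hepatocytes, in 4 hCNR1+/+ and 4 hCNR1-/- samples, were profiled on one-colour Agilent arrays. The authors deposited each array's scanner output from Agilent Feature Extraction 12.0.3.1, whose processed signal is a background-subtracted intensity, and a deposited score per spot that equals the standardized log2 intensity of its array to within 0.005. Their design build is mm9. Each array held 59305 non-control spots, of which 28.6% to 42.3% were well above background. The number of arrays limits the precision.

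Log2 processed signals were scaled to the 75th percentile of each array, spots flagged as outliers were left out, and spots of a probe were averaged. Probes were named through RefSeq accessions (28331 of 55681 probes), and the brightest probe stood for a gene if it was well above background, in at least 50% of its spots, on at least 4 of 8 arrays. Genotypes were compared with limma 3.58.1 in R 4.3.3 (lmFit and eBayes), with Benjamini-Hochberg adjustment over 11072 genes and a threshold of 0.05. The procedure was tested on simulated data. Within-array differences were compared by exact permutation tests.

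Members and lists were chosen with earlier results of these data known. Values on every array are given for the inducible subunits, Psme1 and the active-site subunits, for members past the adjusted threshold, and for the largest rise and fall of each role class. Of the other gene lists the genes past the adjusted threshold are named. Other members, and some genes of these lists, were named after their values were seen, and some genes of the lists are not reported here. Alternatives covered scaling, background correction, the deposited scores, filter, probe choice, variance model, array weights, replicate block and leaving out each array. Of the other marker lists, 8 endothelial, 1 stellate, 1 neutrophil and 3 cholangiocyte genes could be tested, with median log2 fold changes of -0.13, -0.91, 0.70 and -0.51 (the last -0.28 without hCNR1-/- replicate 4), and none passed the adjusted threshold in limma (by unadjusted p, 1 endothelial gene was lower and 1 neutrophil gene higher).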

Additional observations from a re-analysis of the deposited data

Results flagged for a closer look

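Of 48 groups of 4 arrays examined, 3 held 1 array far from the others. Chance alone flags about 1 group in 20, so this count is close to what chance gives. Psma7 in hCNR1+/+ hepatocytes was 7.73 in replicate 2 and 7.58 in each of the others, so the gap was 0.982 of the group's range. Psmb8 in hCNR1-/- hepatocytes was 3.19 in replicate 4 against 3.42 to 3.44 in the others (0.924 of the range). The mean correlation of an array with its own group was 0.942 for hCNR1-/- replicate 4 against 0.972 to 0.975 for the other hCNR1-/- arrays (0.907 of the range).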

How the results depend on the processing

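The number of members higher by adjusted p, 4 as reported, was 0 with the percentile taken over probes well above background on all arrays, quantile normalization, median scaling, no scaling, the deposited scores, normexp, no filter or the replicate block, 12 with array weights (28.6%, where 19.7% of all genes were higher), and 0 to 7 with 1 array left out. With array weights 1 member was lower, where 5.83% of all genes were. The number past a fold change of 2 and p below 0.05, 3 as reported, was 1 with the percentile over bright probes, quantile normalization or array weights, 0 with no scaling or normexp, and 1 to 4 with 1 array left out. In the other direction, 0 as reported, it was 1 with the percentile over bright probes, quantile normalization or the deposited scores, and 0 to 1 with 1 array left out. Shares of all genes by fold change are given above only for the scaling used. The member median of 0.20 was 0.046 with the percentile over bright probes, 0.36 with array weights and -0.35 without scaling, where 22 members had another sign. Against the scaling used, the median of all genes shifted by -0.56 without scaling, by -0.16 with the percentile over bright probes and by -0.10 with the deposited scores. Leaving out the dimmest array was added after the data were seen. With no scaling it gave 0 members higher by adjusted p, 0 by fold change and a median of 0.22. With the percentile over bright probes 4 members were higher by adjusted p (9.52%, where 2.54% of all genes were higher). They were Psma7, Psmb3, Psmb4 and Psmb6. In that setting the count by fold change was 0 and the member median 0.12. Psmb8 minus Psmb5 changed by -0.39 with quantile normalization, -0.82 with the deposited scores (multiplied by the mean SD of the arrays' log2 intensities), -0.66 with the replicate block and -0.75 to -0.50 with 1 array left out. Psmb9 minus Psmb6 changed by -0.73, -1.19, -1.07 and -1.15 to -0.98. Their adjusted exact permutation p was 0.0857 with quantile normalization, 0.386 and 0.171 with the scores and 0.188 with the block, for which 4 pairs allow no p under 0.125. With 4 against 3 arrays the smallest is 0.0571. Same-numbered arrays shared a column of the slide, so the replicate block is also a block by column. Replicate 4 was the dimmest array of each genotype. The deviations of same-numbered arrays from their group means were weakly correlated (0.21, -0.16, -0.053 and 0.017), which cannot decide whether the arrays are paired. With the replicate block limma called 0 genes in all. The causes were not tested. No block by slide or scan was possible, since all arrays share both. Normexp started from the median signal. The filter, variance model and weights do not bear on the pairs.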
